A study of Mus musculus with 18 samples.

Results

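The genes described here encode the proteins that recognise lipopolysaccharide (LPS), the endotoxin of Gram-negative bacteria, outside the cell and in the cytosol, with the adaptors that carry the signal on. They were taken as the 8 symbols Lbp, Cd14, Ly96, Tlr4, Tlr2, Tirap, Myd88 and Casp4, with every probe set that the platform annotation gives to only that symbol. All 8 genes were found, with 13 probe sets of the 45037 tested, and 18193 genes had a probe set in all. Tlr4 had 4 probe sets, Lbp and Tirap had 2 each, and each of the other genes had 1. A gene is represented by its probe set with the highest mean, and the others are given beside it.

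LPS is lifted from bacterial membranes by the plasma protein LBP and handed to CD14, which passes it to MD-2, the protein of Ly96, bound to the receptor TLR4. At the plasma membrane the sorting adaptor TIRAP brings MyD88 to TLR4, and kinases downstream of MyD88 activate NF-kB. TLR2 recognises bacterial lipoproteins and uses the same adaptors. Casp4 encodes the mouse inflammatory caspase that binds LPS in the cytosol and cleaves gasdermin D, a pore-forming protein. In the heart, endothelial cells, resident macrophages and cardiomyocytes can express TLR4, and endotoxin lowers contractile function.

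RNA from mouse hearts was hybridized to 18 Affymetrix Mouse430_2 arrays, which carry 1 colour. The groups were control mice and Kir6.1-deficient mutants, whose gene Kcnj8 encodes the pore of an ATP-sensitive potassium channel of vascular smooth muscle. Each genotype was studied 3 h after PBS, 30 min after 0.5 µg LPS in PBS and 3 h after that LPS amount, with 3 arrays per genotype and condition. The labels give neither age nor strain nor how Kir6.1 was disrupted, and no PBS group was taken at 30 min. Both LPS groups are therefore set against PBS at 3 h.

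Values are deposited log2 RMA signals, and a change is a log2 difference from a limma fit with its standard error. A gene passed when its p, adjusted by Benjamini-Hochberg over all 45037 probe sets, was below 0.05. RMA pulls dim signals towards a floor, so changes of dim probe sets are understated. Kcnj8 lay at 8.35 to 8.90 on the 9 control arrays and at 4.35 to 5.36 on the 9 mutant arrays. Cardiomyocyte markers, the check of the tissue, averaged 13.3 to 13.7 on every array.

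Arrays were hybridized on 3 days. The first day held 10 arrays, namely every PBS array, the LPS 3 h arrays of controls and replicate 2 of the mutants at LPS 3 h. Replicates 1 and 3 of that mutant group alone were run on the second day. The difference of 3′ and 5′ control signals (Gapdh and Actb), a sign of shortened RNA where it is large, was 1.37 and 1.09 on these, against 0.13 to 0.44 on the other 16 arrays. All 6 LPS 30 min arrays were run on the third day, so day cannot be told apart from a difference between LPS 30 min and any other condition. LPS 3 h and PBS arrays never shared an array lot, so lot and LPS cannot be told apart either. Mutant LPS 3 h results are therefore given without the second-day arrays too where their size or call moved. That leaves replicate 2 as the lone mutant array at LPS 3 h, so such mutant changes are those of a single array. Any call or count from that setting takes this array to vary as the other groups do.

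Casp4, Tlr2, Cd14, Lbp and Myd88 were higher at 3 h after LPS than after PBS when the genotypes were averaged. Only Casp4 and Lbp also passed in each genotype alone. Averaged over the genotypes, 5 of the 8 genes rose, 0 fell and 3 did not pass, while 10.7% of all probe sets passed either way and 3.90% passed as higher. Casp4 rose 5.84-fold, Tlr2 2.65-fold, Cd14 2.06-fold, Lbp 1.67-fold and Myd88 1.48-fold. Tlr4, Ly96 and Tirap, which encode the receptor, its LPS-binding partner and the sorting adaptor, did not pass. The median change of the 8 genes was 0.65, and that of all probe sets was 0.01. At 30 min none of the 8 passed in either genotype.

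The promoters of genes that rose are shown with that of Tirap, which did not pass, so that their sequences can be set beside the values. The RefSeq promoter table of GRCm38.p6 held 4 of the 8 genes, namely Casp4, Tlr2, Myd88 and Tirap. Each sequence is the 250 bases before the annotated start, 5′ to 3′ on the strand of the gene, and capitals mark motif matches. Casp4 lies at chr9:5308599-5308848 on the plus strand. The other windows are on the minus strand, with Tlr2 at chr3:83841609-83841858, Myd88 at chr9:119340019-119340268 and Tirap at chr9:35199966-35200215.
Casp4: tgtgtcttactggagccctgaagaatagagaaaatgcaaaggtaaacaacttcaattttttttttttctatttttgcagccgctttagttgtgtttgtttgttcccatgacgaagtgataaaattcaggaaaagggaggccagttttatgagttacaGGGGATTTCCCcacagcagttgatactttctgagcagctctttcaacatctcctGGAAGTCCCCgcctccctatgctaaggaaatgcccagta
Tlr2: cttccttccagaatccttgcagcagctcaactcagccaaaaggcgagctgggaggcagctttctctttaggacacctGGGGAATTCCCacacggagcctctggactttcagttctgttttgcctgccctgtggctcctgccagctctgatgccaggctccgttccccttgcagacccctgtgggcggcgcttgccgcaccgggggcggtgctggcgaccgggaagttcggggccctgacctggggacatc
Myd88: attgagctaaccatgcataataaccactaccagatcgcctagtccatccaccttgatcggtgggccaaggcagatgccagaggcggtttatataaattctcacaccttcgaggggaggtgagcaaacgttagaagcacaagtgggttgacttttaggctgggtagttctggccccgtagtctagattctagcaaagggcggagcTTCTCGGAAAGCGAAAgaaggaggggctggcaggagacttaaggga
Tirap: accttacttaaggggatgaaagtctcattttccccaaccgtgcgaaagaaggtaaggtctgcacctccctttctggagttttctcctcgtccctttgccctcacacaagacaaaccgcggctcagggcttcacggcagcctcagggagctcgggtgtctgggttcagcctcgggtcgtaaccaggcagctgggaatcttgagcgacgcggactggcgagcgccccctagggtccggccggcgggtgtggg

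A set of 4 motifs was searched on both strands with overlaps allowed: the NF-kB consensus, the core of the interferon response element, TTCNNNGAA (a STAT core) and TGANTCA (an AP-1 site). In the window of Casp4 the NF-kB consensus matched at bases -93 to -83, as 2 overlapping matches, and again at -39 to -30. Tlr2 held 2 overlapping NF-kB matches at -173 to -163. In 32536 distinct promoters of this length, 7.28% held that consensus. Myd88 held the interferon response element core at -40 to -31, found in 2.98% of promoters, and the overlapping TTCNNNGAA at -46 to -38, found in 7.04%. The AP-1 site, in 6.73% of promoters, was in none of these windows, and the window of Tirap held no match. The second listed start sites of Casp4 and Tirap gave windows that overlap those shown and hold the same motifs. A match describes letters only.

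**Figure D1:**
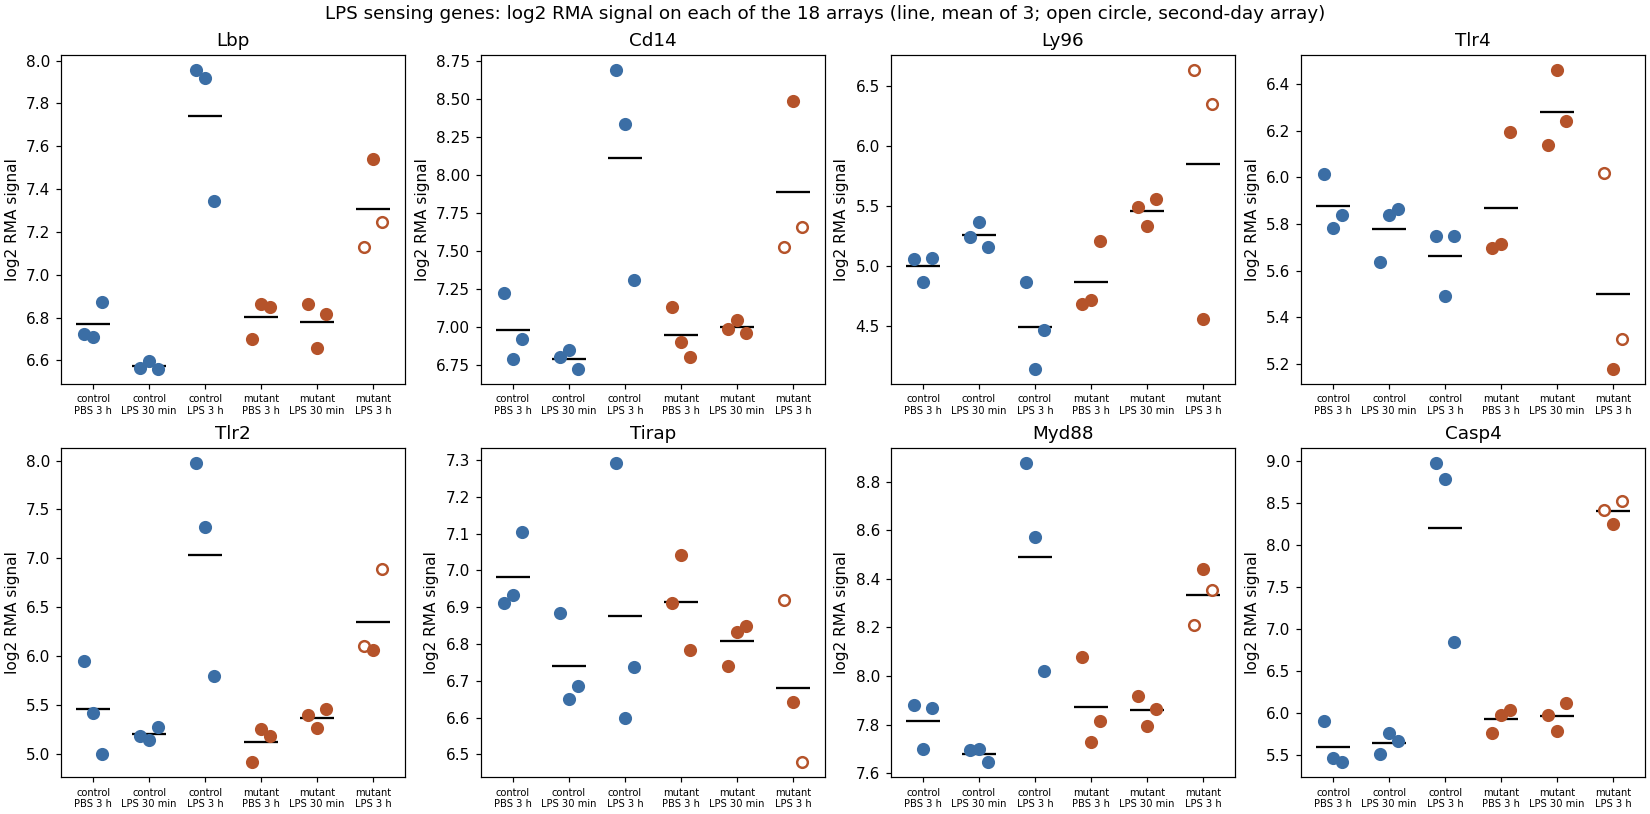
Log2 RMA signal (y axis) of each LPS sensing gene on each of the 18 arrays, by genotype and condition (x axis), 1 panel per gene with its own scale. Blue is control, red is mutant, lines are means of 3 arrays and open circles are the 2 second-day arrays. Casp4 lies between 5.41 and 6.12 on all PBS and LPS 30 min arrays and between 6.84 and 8.98 on all LPS 3 h arrays.

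Casp4, the cytosolic LPS sensor, had the largest change of the 8 genes. After PBS its log2 signal was 5.90, 5.46 and 5.41 in control hearts and 5.76, 5.97 and 6.04 in mutant hearts. At 30 min after LPS it was 5.51, 5.76 and 5.66 in controls and 5.97, 5.78 and 6.12 in mutants. At 3 h it was 8.98, 8.79 and 6.84 in controls and 8.42, 8.25 and 8.53 in mutants. Every LPS 3 h array thus lay above every PBS and LPS 30 min array, and control replicate 3 was the lowest of the 6. The rise was 2.61 (SE 0.37, 6.11-fold, adjusted p = 0.00457) in controls and 2.48 (SE 0.37, 5.58-fold, adjusted p = 0.00100) in mutants. The difference between these rises, mutant minus control, was -0.13, with a 95% interval of -1.23 to 0.97 (adjusted p = 0.901). On replicate 2, the lone mutant LPS 3 h array without the second day, the rise was 2.33.

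Tlr2 encodes a receptor for bacterial lipoproteins, and LPS is not its classical ligand. Its signals after PBS were 5.95, 5.41 and 5.0 in controls and 4.91, 5.25 and 5.18 in mutants. They were 5.18, 5.15 and 5.27 in controls and 5.39, 5.26 and 5.45 in mutants at 30 min. They reached 7.97, 7.32 and 5.80 in controls and 6.11, 6.06 and 6.89 in mutants at 3 h. In controls, replicate 3 at 3 h fell below the highest PBS array, so the groups overlapped, while in mutants they did not. The change was 1.57 (SE 0.39, 2.98-fold, adjusted p = 0.0930) in controls, which did not pass, and 1.24 (SE 0.39, 2.36-fold, adjusted p = 0.0342) in mutants. Averaged over the genotypes Tlr2 rose by 1.41 (SE 0.27, adjusted p = 0.00581). Leaving out 1 array at a time gave control changes of 1.10 to 2.19. Of these 6 fits 1 passed, that without control LPS 3 h replicate 3 (2.19, adjusted p = 0.000452), and the highest adjusted p was 0.373. With the second-day arrays left out, the change on the lone mutant array was 0.95.

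Cd14, the co-receptor that hands LPS to the TLR4 complex, was at 7.22, 6.79 and 6.92 after PBS in controls and at 7.13, 6.90 and 6.80 in mutants. Its LPS 30 min signals, 6.80, 6.85 and 6.72 in controls and 6.98, 7.04 and 6.96 in mutants, lay in the range of the PBS arrays or just under it. At 3 h the signals were 8.69, 8.34 and 7.31 in controls and 7.53, 8.49 and 7.66 in mutants. No LPS 3 h array overlapped a PBS array, and control replicate 3 was again the lowest. The change was 1.13 (SE 0.28, adjusted p = 0.0914) in controls, which did not pass, and 0.95 (SE 0.28, adjusted p = 0.0265) in mutants. Over both genotypes Cd14 rose by 1.04 (SE 0.20, adjusted p = 0.00493). In mutants the array with the highest Cd14 was replicate 2, from the first day, and on that array alone the rise was 1.54.

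Lbp encodes the carrier of LPS in plasma, which is made mainly by the liver. The brighter of its probe sets, 1448550_at, gave 6.72, 6.71 and 6.87 after PBS in controls and 6.70, 6.86 and 6.85 in mutants. The LPS 30 min signals were 6.56, 6.60 and 6.56 in controls and 6.86, 6.66 and 6.82 in mutants. At 3 h they were 7.96, 7.92 and 7.35 in controls and 7.13, 7.54 and 7.24 in mutants, all above every other array. Lbp rose by 0.97 (SE 0.14, 1.96-fold, adjusted p = 0.00645) in controls and by 0.50 (SE 0.14, 1.42-fold, adjusted p = 0.0227) in mutants. Without the second-day arrays it was 0.74 on the lone mutant array. The dimmer probe set, 1447520_at, rose by 0.82 in mutants (adjusted p = 0.0111), and its change in controls was 0.29 (adjusted p = 0.663). Both second-day arrays lay above the first-day array, replicate 2. On that array alone, a setting added after seeing the data, the mutant change was 0.30. Averaged over the genotypes both probe sets of Lbp rose, by 0.74 (adjusted p = 0.000528) and 0.56 (adjusted p = 0.0200), and without the second-day arrays 1447520_at gave 0.30. Of 7 measured hepatocyte markers 1 rose in the averaged comparison, where 3.90% of all probe sets passed as higher. Their mean was 4.65 to 4.77 after PBS and 4.54 to 4.96 at LPS 3 h in controls, and 4.67 to 4.73 and 4.91 to 5.23 in mutants. Over all arrays Ahsg and Ttr averaged 6.05 and 5.97, and Apoa1 and Alb 4.90 and 4.85, beside a median of 4.85 over all probe sets. Apob, Fgb and Cyp3a11 averaged 4.23, 3.82 and 3.70. The part of liver RNA in the Lbp result was not tested.

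Myd88, the adaptor shared by most Toll-like receptors, had the smallest rise of the 5 genes. After PBS it was at 7.88, 7.70 and 7.87 in controls and at 8.08, 7.73 and 7.81 in mutants. Its signals at 30 min were 7.70, 7.70 and 7.65 in controls and 7.92, 7.79 and 7.86 in mutants. At 3 h they were 8.88, 8.57 and 8.02 in controls and 8.21, 8.44 and 8.35 in mutants. Within each genotype the PBS and LPS 3 h arrays did not overlap, though control replicate 3 at 3 h lay under the highest mutant PBS array. The change was 0.68 (SE 0.16, adjusted p = 0.0793) in controls and 0.46 (SE 0.16, adjusted p = 0.0502) in mutants, and neither passed. Averaged over the genotypes Myd88 rose by 0.57 (SE 0.11, adjusted p = 0.00629). Its change in mutants without the second-day arrays was 0.57, on the lone first-day array.

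**Figure D2:**
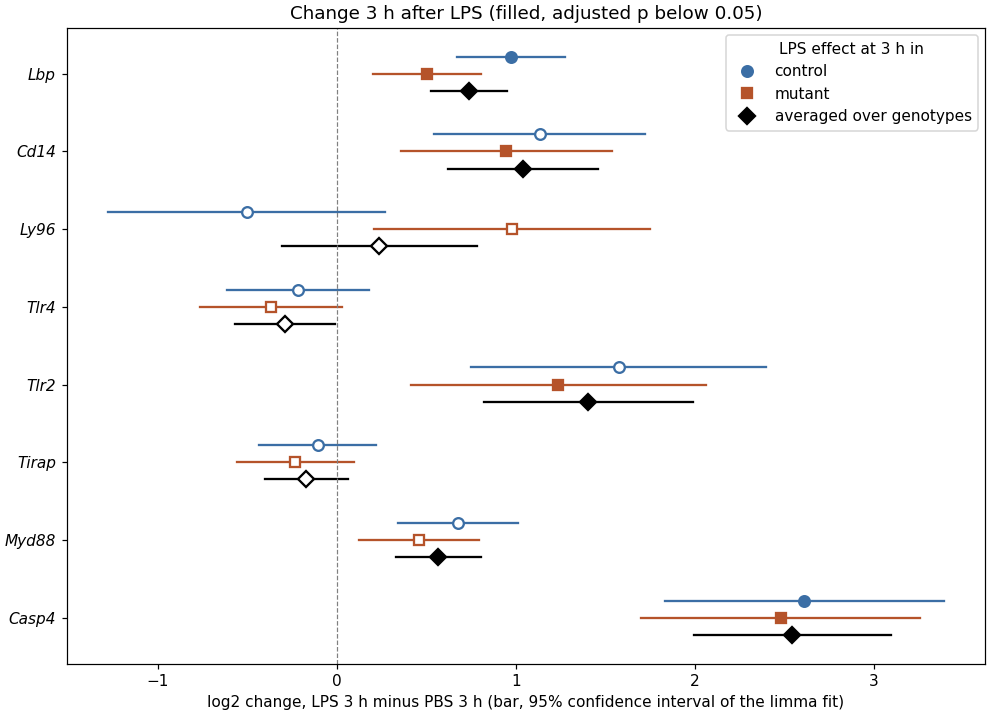
Log2 change from PBS 3 h to LPS 3 h (x axis) of each gene (y axis) in control hearts (blue circles), mutant hearts (red squares) and averaged over the genotypes (black diamonds). Bars are 95% confidence intervals of the limma fit and filled symbols have an adjusted p below 0.05. The averaged change is filled for Lbp (0.74), Cd14 (1.04), Tlr2 (1.41), Myd88 (0.57) and Casp4 (2.55).

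Tlr4, the receptor itself, did not pass at 3 h. On its brightest probe set, 1418162_at, it was at 6.01, 5.78 and 5.84 after PBS in controls and at 5.70, 5.71 and 6.19 in mutants. At 30 min it was at 5.64, 5.84 and 5.86 in controls and at 6.14, 6.46 and 6.24 in mutants. The LPS 3 h signals were 5.75, 5.49 and 5.75 in controls and 6.02, 5.18 and 5.30 in mutants. Control arrays at 3 h all lay just under the control PBS arrays, and the mutant groups overlapped. The change at 3 h was -0.22 (SE 0.19, adjusted p = 0.762) in controls, -0.37 (SE 0.19, adjusted p = 0.165) in mutants and -0.29 (SE 0.13, adjusted p = 0.153) averaged. On the 16 arrays of the other days, and on first-day arrays alone, the averaged change was -0.45, with a lone mutant array at LPS 3 h. The probe set 1418163_at gave 0.13 (adjusted p = 0.565) averaged over the genotypes. Without the second-day arrays it gave 0.17. The other probe sets of Tlr4, 1430695_at and 1442827_at, averaged 3.69 and 3.45, well under the median of all probe sets, 4.85, and did not pass (averaged changes -0.02 and -0.04).

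Ly96, which encodes the LPS-binding partner of TLR4, split by hybridization day in mutants at 3 h. It was at 5.06, 4.86 and 5.07 after PBS in controls and at 4.68, 4.71 and 5.20 in mutants. At 30 min it was at 5.24, 5.37 and 5.16 in controls and at 5.49, 5.33 and 5.56 in mutants. At 3 h after LPS it was at 4.87, 4.14 and 4.47 in controls and at 6.63, 4.56 and 6.35 in mutants. The high mutant values were those of the second-day arrays, and the mutant array of the first day lay among the controls. The change at 3 h was -0.50 (SE 0.36, adjusted p = 0.698) in controls and 0.98 (SE 0.36, adjusted p = 0.0656) in mutants, and neither passed. Without the second-day arrays the mutant change was -0.31, on the first-day array alone.

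Tirap, the sorting adaptor, gave different answers on its probe sets. On the brighter one, 1457676_at, PBS signals were 6.91, 6.93 and 7.10 in controls and 6.91, 7.04 and 6.78 in mutants. LPS 30 min signals were 6.88, 6.65 and 6.69 in controls and 6.74, 6.83 and 6.85 in mutants. LPS 3 h signals were 7.29, 6.60 and 6.74 in controls and 6.92, 6.64 and 6.48 in mutants, so all groups overlapped at 3 h. The change was -0.11 (adjusted p = 0.887) in controls and -0.23 (adjusted p = 0.282) in mutants. On 1418685_at the change was -0.01 (adjusted p = 0.992) in controls, and in mutants the probe set rose by 0.44 (adjusted p = 0.0211). Its mutant LPS 3 h signals were 5.95, 5.64 and 6.09, with the first-day array, replicate 2, the lowest. Without the second-day arrays, as added after seeing the data, the mutant change on this probe set was 0.18, on the first-day array alone. No direction can be given for Tirap in mutant hearts from these probe sets.

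**Figure D3:**
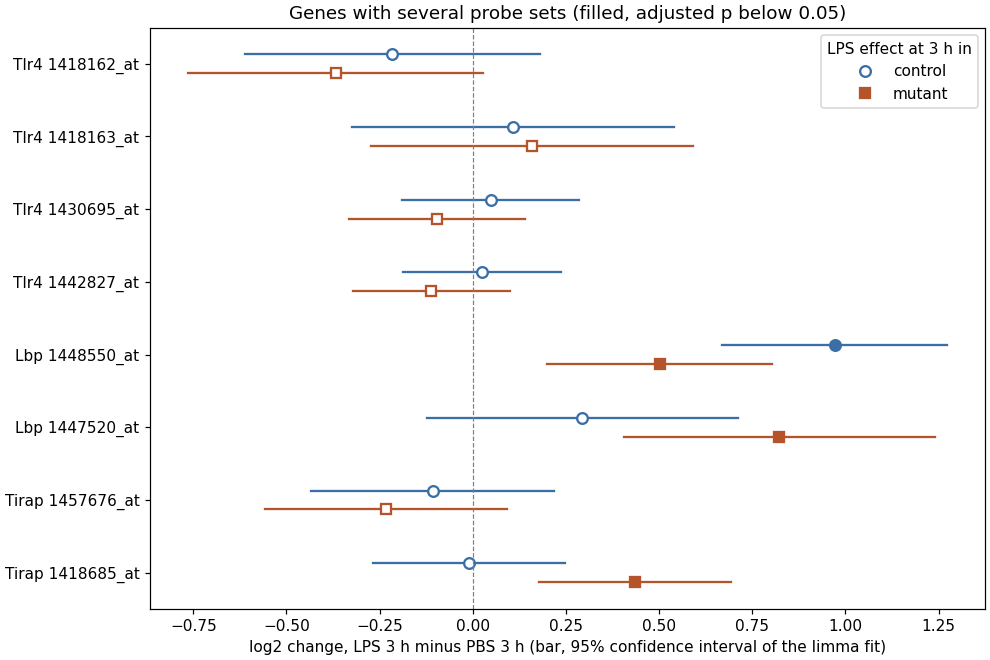
Log2 change from PBS 3 h to LPS 3 h (x axis) for every probe set of Tlr4, Lbp and Tirap (y axis), in control (blue circles) and mutant hearts (red squares), with 95% confidence intervals and filled symbols where the adjusted p was below 0.05. The Tirap probe sets stand on opposite sides of 0 in mutants, at -0.23 and 0.44.

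Within each genotype fewer of the 8 genes passed than in the averaged comparison. In control hearts 2 of 8 rose, Casp4 and Lbp, and 0 fell, against 0.500% of all probe sets passing either way. In mutant hearts 4 of 8 rose, Casp4, Cd14, Lbp and Tlr2, and 0 fell, against 21.1%. Without the second-day arrays replicate 2 was the lone mutant LPS 3 h array, so only its changes are given. They were 2.33 for Casp4, 1.54 for Cd14, 0.95 for Tlr2, 0.74 for Lbp and 0.57 for Myd88. For Tlr4, Ly96 and Tirap they were -0.69, -0.31 and -0.27, and the Tlr4 probe set 1418163_at went the other way, at 0.23. The PBS and LPS 3 h arrays did not overlap for 5 of 8 genes in controls, where Tlr4 was the lower one, and for 5 of 8 in mutants, against 19.0% and 27.9% of all probe sets. These unequal backgrounds do not show that more of the genes responded in mutants, and none of the 8 differed between genotypes in its LPS 3 h effect (0 of 8, against 0.104% of all probe sets, and at an unadjusted p under 0.05 it was 2 of 8, against 22.2%). Among control hearts at 3 h, replicate 3 was the lowest array for all 5 genes that rose. Without it 5 of 8 rose in controls, against 1.36% of all probe sets, with Cd14 at 1.54 (adjusted p = 0.00157), Myd88 at 0.91 (adjusted p = 0.000946) and Casp4 at 3.29 (adjusted p = 9.5e-08). With the second-day arrays left out, 5 of 8 rose in controls too, against 3.29%. Leaving out control PBS replicate 2 reduced the control genes to 1, Casp4, against 0.0733%, with Lbp at 0.94 (adjusted p = 0.0512). In mutants, leaving out LPS 3 h replicate 3, PBS replicate 2 or PBS replicate 3 reduced the 4 genes to 1, Casp4, against 7.15% to 9.64% of all probe sets. Leaving out LPS 3 h replicate 1, a second-day array, gave 6, against 26.3%, with Myd88 higher by 0.52 (adjusted p = 0.0416) and Tlr4 lower by -0.63 (adjusted p = 0.00973).

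**Figure D4:**
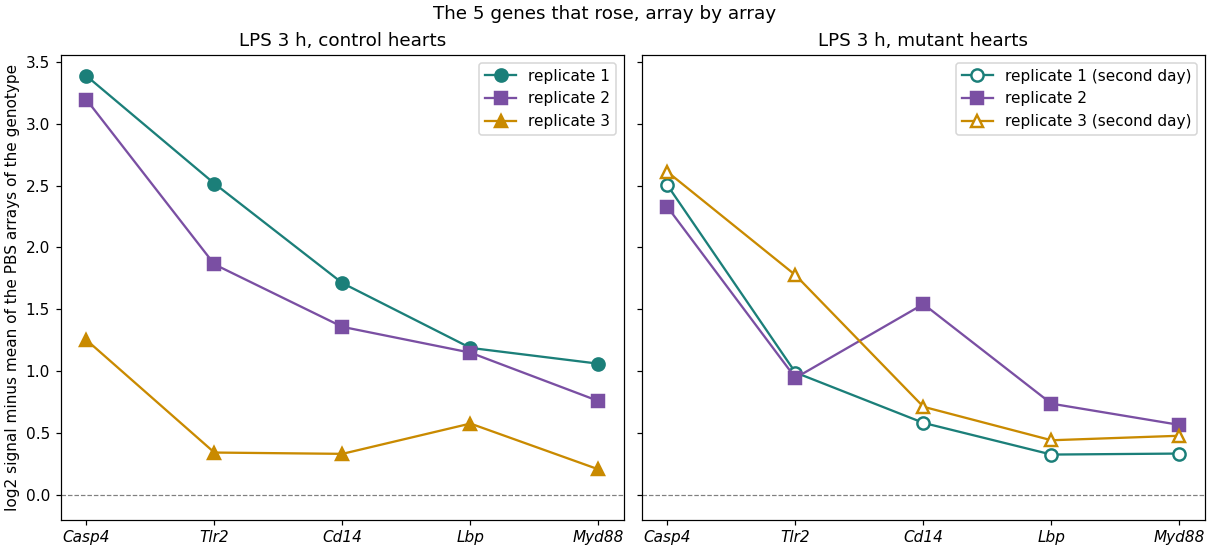
Log2 signal of each LPS 3 h array minus the mean of the PBS arrays of its genotype (y axis) for the 5 genes that rose (x axis), with 1 line per array, control hearts on the left and mutant hearts on the right, and open symbols for second-day arrays. In controls the line of replicate 3 lies under the others throughout, with Casp4 at 1.25 against 3.39 and 3.19.

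The log2 signals of the 5 genes that rose were correlated over the arrays. Over the 18 arrays Pearson's r between their log2 signals was 0.874 to 0.961 in the 10 pairs, and 0.882 to 0.967 over the 16 arrays without the second day. What these points share is the array, the LPS treatment and the day. After the mean of each group was taken off, r was 0.578 to 0.913 over all groups together. All 5 genes had their largest SD in LPS 3 h controls, such as 1.18 for Casp4 and 1.12 for Tlr2. Replicate 3 was the lowest array there for each, so that array weighs heavily in these r. The genes did not move as 1 within every group. Among mutants at LPS 3 h, replicate 2 was the highest array for Cd14 (8.49), Lbp (7.54) and Myd88 (8.44). It was the lowest array there for Casp4 (8.25) and Tlr2 (6.06). These correlations are descriptions, with no test. Macrophages and monocytes carry CD14 and TLR2. In the averaged comparison 10.7% of all probe sets passed either way and 3.90% as higher, beside which the marker counts here are to be read. Of 13 measured markers of these cells 2 rose in that comparison, 0 fell and 11 did not pass. Their list mean was 7.32 to 7.49 after PBS and 7.56 to 7.80 at LPS 3 h in controls. In mutants that mean was 7.37 to 7.57 and 7.51 to 7.62, and the ranges overlapped. Of 11 neutrophil markers 2 rose and 0 fell, with a mean of 4.50 to 4.96 after PBS and 4.99 to 5.52 at LPS 3 h in controls, and of 4.74 to 5.16 and 5.41 to 5.96 in mutants. Of 12 endothelial markers 0 rose and 4 fell. By genotype 0 fell in controls, against 0.500% of all probe sets passing either way, and 7 fell in mutants, against 21.1%. The mutant count includes the second-day arrays. No marker can be at 0 on this scale. In the dimmer list, of neutrophils, S100a8 and S100a9 were the brightest, at means of 7.35 and 7.58. The other neutrophil markers lay between 3.95 (Cxcr2) and 5.14 (Csf3r), around the median of all probe sets, 4.85. In whole hearts more cells of a type and more RNA per cell cannot be told apart, and the part of leukocyte number in the rise of Cd14, Tlr2 and Casp4 was not tested.

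At 30 min after LPS none of the 8 genes passed against PBS in controls, in mutants or averaged, where 0.142%, 0.0488% and 0.981% of all probe sets passed. At an unadjusted p under 0.05 the counts were 0, 1 and 0, where 8.21%, 6.71% and 12.8% of all probe sets lay, and the 1 gene was Tlr4 in mutants, at 0.41 (SE 0.19, adjusted p = 0.697). Its other probe sets gave 0.13 (1418163_at), -0.15 (1430695_at) and -0.08 (1442827_at) in mutants, and none of them passed. The median change of the 8 genes was -0.16 in controls and 0.04 in mutants. For Casp4 the change was 0.05, with a 95% interval of -0.73 to 0.83, in controls and 0.04, from -0.74 to 0.82, in mutants. The interval of Lbp was narrower, from -0.50 to 0.11 in controls and from -0.33 to 0.28 in mutants.

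From 30 min to 3 h after LPS the same 5 genes rose in controls, where 5 of 8 passed as higher and 0 as lower, against 1.45% of all probe sets either way. Casp4 rose by 2.56 (adjusted p = 0.00239), Tlr2 by 1.83 (adjusted p = 0.0273), Cd14 by 1.32 (adjusted p = 0.0267), Lbp by 1.17 (adjusted p = 0.000832) and Myd88 by 0.81 (adjusted p = 0.0197). In mutants 4 of 8 rose, without Tlr2, against 27.5% of all probe sets either way. Tlr4 fell there by 0.78 (SE 0.19, adjusted p = 0.00895), and its LPS 30 min and LPS 3 h arrays did not overlap, as for 33.4% of all probe sets. On the 16 arrays of the other days Tlr4 was lower by 1.10 on the lone mutant array at LPS 3 h. On the probe set 1418163_at the change was 0.03 over all arrays (adjusted p = 0.917). Without the second-day arrays that probe set gave 0.10. The comparisons with 30 min and with PBS share the LPS 3 h arrays.

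Between genotypes none of the 8 genes passed before LPS 3 h. The count was 0 of 8 after PBS and 0 of 8 at 30 min after LPS, against 0.00888% of all probe sets each time, and at an unadjusted p under 0.05 the counts were 0 and 1, where 5.04% and 4.05% of all probe sets lay. After PBS the differences, mutant minus control, ran from -0.34 for Tlr2 to 0.33 for Casp4. At 30 min all 8 were above 0, from 0.07 for Tirap to 0.50 for Tlr4 (95% interval 0.11 to 0.90, adjusted p = 0.984), and the Tlr4 arrays did not overlap, as for 20.2% of all probe sets. That Tlr4 difference is of its brightest probe set only. It was 0.12 on 1418163_at, -0.23 on 1430695_at and -0.04 on 1442827_at, and on each of these the arrays overlapped. Over the 3 conditions 0 of 8 passed, against 2.34% of all probe sets, and 1 had an unadjusted p under 0.05, as did 19.2% of all probe sets.

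At 3 h after LPS 2 of 8 genes passed between genotypes, against 18.4% of all probe sets. Ly96 was higher in mutants by 1.35 (SE 0.36, adjusted p = 0.0207) and Lbp was lower by -0.44 (SE 0.14, adjusted p = 0.0442). The arrays of the genotypes overlapped for both genes. Without the second-day arrays, with a lone mutant array, the difference was 0.06 for Ly96 and -0.20 for Lbp. The Lbp call was lost without control replicate 1 or 2 or mutant replicate 1 or 3 (adjusted p = 0.112 to 0.185). The Ly96 call was lost without control replicate 2 or 3 or mutant replicate 1 or 3 (adjusted p = 0.0512 to 0.105). The Lbp probe set 1447520_at differed by 0.46, in the opposite direction, and did not pass (adjusted p = 0.114), and without the second-day arrays it gave -0.06. Tirap on 1418685_at was higher in mutants by 0.47 (adjusted p = 0.0175), and by 0.22 without the second-day arrays.

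The order of the group means put LPS 3 h first for all 5 genes that rose, in both genotypes. For Casp4 mutants stood above controls, at 8.40 ± 0.14 and 8.20 ± 1.18 (SD, n = 3 each), and for Cd14, Lbp, Tlr2 and Myd88 controls stood above mutants. Casp4 then followed at 5.96 ± 0.17 in mutants at 30 min, 5.92 ± 0.15 in mutants after PBS, 5.64 ± 0.13 in controls at 30 min and 5.59 ± 0.27 in controls after PBS. The mutant means of those groups, 5.96 and 5.92, lay closer together than the SD of any of them, 0.13 to 0.27. So did the control means, 5.64 and 5.59. Only means of different genotypes lay further apart than these SDs. The SD pooled over all groups was 0.51 and includes the 1.18 of LPS 3 h controls. Tlr2 ran from 7.03 ± 1.12 in LPS 3 h controls and 6.35 ± 0.47 in LPS 3 h mutants down to 5.12 ± 0.18 in PBS mutants. For Cd14 the LPS 3 h means were 8.11 ± 0.72 and 7.89 ± 0.52, and the other groups lay between 6.79 ± 0.06 and 7.0 ± 0.04. Tlr4 had its highest mean in mutants at 30 min, 6.28 ± 0.16, and its lowest in mutants at 3 h, 5.50 ± 0.45. The other groups of Tlr4 lay between 5.66 ± 0.15 and 5.88 ± 0.12. Its probe set 1418163_at gave another order, highest in controls at 3 h (5.81 ± 0.19) and lowest in mutants after PBS (5.57 ± 0.17).

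The genes whose log2 signals were most like those of each member over the 18 arrays were picked from 12685 candidates by Pearson's r, as a description with no test. For Casp4 they were Icam1 (r = 0.977), Birc3 (0.972) and Bcl3 (0.971). Cxcl10 (0.969), Tnfaip3 (0.959) and Ms4a6c (0.935) were nearest to Tlr2, and Ch25h (0.961), Pnp (0.955) and Ifi47 (0.951) to Cd14. Lbp had Pnp (0.973), Ankrd9 (0.953) and Fkbp5 (0.945), and Myd88 had Birc2 (0.968), Ifi47 (0.951) and Relb (0.949). Over the 16 arrays without the second day these r were 0.945 to 0.985. By Pearson's r the nearest genes of Tlr4 and Tirap were less alike, with Luc7l3 at 0.906 and Lysmd2 at 0.883 as the highest. Spearman's correlation of ranks did not give that order, with 0.833 and 0.895 for these pairs. For the neighbours of the 5 genes that rose it ran from 0.593 (Casp4 and Icam1) to 0.946 (Myd88 and Birc2). For Ly96 the highest, Tmem167, had 0.952 over the 18 arrays and 0.864 over the 16.

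Relatives of these genes were followed as lists chosen with earlier results of the data known. In the averaged LPS 3 h comparison, of 14 measured relatives of the receptors 4 rose, 1 fell and 9 did not pass, with a median change of 0.19. Of all probe sets 10.7% passed either way there and 3.90% as higher. Tlr3, a receptor for double-stranded RNA, rose by 0.46 (adjusted p = 0.0149), Ly86, the MD-1 partner of the receptor-like RP105, by 0.44 (adjusted p = 0.0106) and Tlr1, a partner of TLR2, by 0.44 (adjusted p = 0.0241). Cd36, a scavenger receptor and fatty acid transporter, fell by 0.60 (adjusted p = 0.0425). With the second-day arrays left out, a setting chosen after seeing the data, 2 rose and 0 fell, against 16.4% of all probe sets passing either way, with Cd36 at -0.14 (adjusted p = 0.243) and Tlr1 at 0.29 (adjusted p = 0.103).

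Downstream of the adaptors, 7 of 24 measured genes rose, 1 fell and 16 did not pass, against 10.7% of all probe sets passing either way. The largest rises were those of feedback inhibitors of NF-kB, Tnfaip3 at 1.56 (SE 0.31, adjusted p = 0.00634) and Nfkbia at 1.26 (SE 0.13, adjusted p = 6.2e-05). Irf7, a transcription factor of the interferon response, rose by 1.09 (adjusted p = 0.000711), and Irak2, a kinase recruited by MyD88, by 0.67 (adjusted p = 0.0345). On the 16 arrays of the other days 7 rose and 2 fell, against the same 16.4%, and all 4 of these genes passed.

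Beside Casp4, 9 of 18 measured genes of cytosolic LPS recognition and the inflammasome rose, 1 fell and 8 did not pass. Of all probe sets 10.7% passed either way. Guanylate-binding proteins, which coat cytosolic bacteria and help caspases reach LPS, led the list, with Gbp2 at 1.27 (SE 0.21, adjusted p = 0.00224), Gbp3 at 1.19 (SE 0.20, adjusted p = 0.00212) and Gbp7 at 1.10 (SE 0.19, adjusted p = 0.00304). These genes are similar in sequence, and the Gbp2 probe set is of a class that can bind other transcripts, so their values are uncertain one by one. Irf1, a transcription factor that drives such genes, rose by 0.75 (SE 0.15, adjusted p = 0.00740). Without the second-day arrays 7 of the 18 rose and 0 fell, against the same 16.4%, and all 4 of these genes passed.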

How the data were processed

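The values are the authors' deposited log2 signals of 45037 probe sets, made with RMA (background correction, normalization between arrays and summary of probes), per the submitters' processing notes. No source used here gives RMA's version or settings. Of these probe sets 34945 had 1 gene symbol, 932 several and 9160 none in the platform annotation. Array medians ran from 4.71 to 4.97. Hybridization day, array lot and fluidics protocol (7 lots, 2 protocols) are per the file headers of the deposited array records. No 2 arrays were copies: the closest pair differed with an SD of 0.16.

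Limma 3.58.1 in R 4.3.3 was fitted to 6 group means over all 18 arrays, with 12 residual and 3.83 prior degrees of freedom. It was tested on simulated data first. The design speaks of 3 mice per genotype but does not tie every array to its own mouse, so p-values measure the spread between arrays, which may be partly technical. The number of arrays limits the precision.

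The genes, lists and tests were chosen with earlier results of these data known. Named pathway genes are up to 4 per list past the threshold with the largest change. Neighbours are the 3 genes with the highest r whose highest group mean reached 4.85, members left out. Alternatives covered normalization, dim probe sets, the probe set per gene, days, array weights, the replicate block, the arrays fitted, the variance model and each array left out.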

Additional observations from a re-analysis of the deposited data

Results flagged for a closer look

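For 3 genes the LPS 30 min arrays of controls all lay under the mean of the control PBS arrays while those of mutants all lay above the mean of the mutant PBS arrays. For Tlr4 the arrays lay -0.24 to -0.01 from that mean in controls and 0.27 to 0.59 in mutants, and the effects differed by 0.51. On the other probe sets of Tlr4 they differed by 0.25 (1418163_at), -0.25 (1430695_at) and -0.16 (1442827_at). Tlr2 had -0.31 to -0.19 and 0.15 to 0.34, with a difference of 0.51. Cd14 had -0.25 to -0.13 and 0.02 to 0.10, with a difference of 0.24. The interaction in the limma fit gave an adjusted p of 1 for each. At an unadjusted p under 0.05 the count over the 8 genes was 0, where 1.96% of all probe sets lay. How many of all probe sets split from PBS in this way was not counted, so these 3 genes are not shown to stand out. All 6 LPS 30 min arrays share a hybridization day that no PBS array shares, and what part the day has was not tested.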

How the results depend on the processing

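In this part a share in parentheses is that of all probe sets passing in the same fit. Of the 8 genes, the averaged LPS 3 h rises of Casp4, Cd14, Lbp and Myd88 passed under all 23 alternatives run. That of Tlr2 passed under 22, missing on first-day arrays. The fits on first-day arrays and without the second-day arrays are among these and hold a lone mutant LPS 3 h array. Leaving out 1 array gave 5 to 6 genes (5.15% to 25.6%). Without the second-day arrays the averaged change of Tlr4 was -0.45, and that of its probe set 1418163_at was 0.17. Within genotypes the counts moved. The LPS 3 h count in controls, 2, was 5 without the second-day arrays (3.29%), 4 with hybridization day as a block (1.53%), 0 on only the arrays compared (0.0133%) and 1 to 5 leaving out 1 array (0.0733% to 1.36%). In mutants the 4 became 0 on first-day arrays (4.03%), where the lone mutant array at LPS 3 h is taken to vary as the other groups do, 2 with array weights (16.5%), 1 on only the arrays compared (0.147%) and 1 to 6 leaving out 1 array (7.15% to 32.8%). At 30 min the count was 2 in mutants with array weights (5.83%), and averaged it was 1 without the second-day arrays (7.29%), 1 with array weights (17.8%) and 1 on only the arrays compared (15.4%). From 30 min to 3 h the 5 in controls became 1 on only the arrays compared (1.19%) and 2 to 5 leaving out 1 array (0.300% to 2.34%). The 5 in mutants became 3 with median centring (25.7%), 2 with array weights (18.4%), 1 on only the arrays compared (0.120%) and 2 to 5 leaving out 1 array (9.91% to 36.1%). Mutant against control at 30 min, the count was 1 with array weights (2.57%) and 1 on only the arrays compared (1.5%). At 3 h the 2 became 1 with quantile normalization, array weights, a variance trend or the replicate block (14.1% to 18.1%), and 0 without the second-day arrays, on first-day arrays, with day as a block and on only the arrays compared (0.00222% to 4.21%), with 0 to 2 leaving out 1 array (3.75% to 32.8%). Over the conditions it was 1 with array weights (14.3%) and 0 to 1 leaving out 1 array (0.921% to 19.8%), and for the genotype difference of the LPS 3 h effect 1 with array weights (13.2%) and 0 to 2 leaving out 1 array (0.0178% to 23.6%). The fits on only the arrays compared have fewer arrays; for the other settings the cause was not tested.

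Of 2080 values over single genes and settings, 1842 kept their sign and side of the threshold, 90 kept the sign and lost the call, and 40 kept the sign and gained one. The sign changed for 108, of which 104 passed in neither fit and 4 passed only under the alternative. Those 4 were Tirap with its most variable probe set, at 0.44 for LPS 3 h in mutants, 0.43 for 3 h against 30 min in mutants and 0.47 between genotypes at 3 h, and Ly96 from 30 min to 3 h in mutants without the second-day arrays, at -0.90. The replicate block changed no other count by over 1.5 times. Deviations from group means of same-numbered arrays had r of -0.32 to 0.36, over 0.1 in 10 of 45 pairs. The mean r was 0.03, against -0.02 for arrays with different numbers. Such values give no sign that the numbers pair the arrays but cannot exclude it. Fits within a day or with day as a block could not give LPS 30 min against PBS. Signal limits Ly96 and the dim probe sets of Tlr4, which lie near or under the median of all probe sets.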
